A study of Sus scrofa with 36 samples.

Results

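The proteasome subunit genes were the array genes whose names start with PSM, followed by a letter from A to G and a number, without the immunoproteasome genes PSMB8, PSMB9 and PSMB10. The rule gave 43 of the 45222 gene names on the array, with 105 of its 60305 probes. Each gene was read from its probe with the highest mean log2 value over the 36 arrays. Of the 43 genes, 42 passed the filter on dim probes, and their 42 probes were well above background on all 36 arrays. The only probe of PSMD5 was well above background on 1 of 36 arrays and was not tested. No probe on the array carries the name PSMA1, PSMA7 or PSMA8, so 5 alpha ring genes were tested.

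The proteasome is the barrel-shaped protease that takes apart proteins tagged with ubiquitin. Its core is built of rings of alpha subunits, which gate the entrance, around rings of beta subunits, some of which cut peptide bonds. A cap of ATPases, scaffold subunits and a lid binds, unfolds and feeds in the substrate, and smaller activators can dock in its place. Assembly chaperones help to build the particle and are not part of the finished one. The members tested were 5 alpha ring genes, 8 beta ring genes, 6 ATPases of the cap base, 3 other subunits of the base, 8 lid subunits, 4 activators, 1 inhibitor and 6 assembly chaperones. PSMB11 encodes a beta subunit known from the thymus. The rule also took PSMC3IP, which is no subunit but a recombination factor named for binding PSMC3.

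Whole adrenal glands (cortex and medulla together) of 36 castrated male pigs were each hybridized to 1 array, from 12 Large White pigs, 12 Creole pigs and 12 pigs of the F1 cross of these breeds. In each breed, 6 pigs were slaughtered at 24 °C (TN) and 6 after 4 to 5 days of heat (HS). The labels give the heat as 30 °C and the methods as 32 °C. All pigs entered the climatic room at 11 weeks of age and were held at 24 °C before the heat, so the HS pigs were slaughtered on later days than the TN pigs, and day and temperature cannot be told apart. The pigs came in 3 blocks of 4 littermates per breed and stood in 2 pens per breed and temperature, but the labels do not tie litters or pens to arrays. Pigs treated as separate here therefore share litters and pens.

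The arrays of all pigs were alike, with correlations between arrays from 0.982 to 0.996 over all probes. The number of probes well above background was 42436 to 48060 in TN and 43585 to 47657 in HS. The arrays lay on 5 slides, and the first held 4 arrays, where no breed had both temperatures. Markers of the steroid-making cortex were measured for 8 of 10 genes listed and those of chromaffin cells, the adrenaline-making cells of the medulla, for 4 of 6, all of them well above background on all 36 arrays.

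In heat, the proteasome genes were slightly lower as a list. Of the 42 genes, 36 had a lower mean log2 value in HS than in TN and 6 a higher one, where 50% of all 45943 probes tested were lower. The median difference of the 42 genes was -0.04 on the log2 scale, a change of -2.85%, and that of all probes tested was 0. With arrays centred on their median, without quantile normalization, these medians were -0.09 and -0.01. The range ran from -0.15 for PSMD12 to 0.03 for PSMB11. The PSMB11 value was not repeated by a probe listed under another name that shares 59 of its bases, which gave -0.04 in HS and had a correlation of -0.10 with it over the 36 pigs. A single gene, PSMC6, passed the threshold of a false discovery rate (FDR) of 0.05 by limma with Benjamini-Hochberg adjustment, in a model with breed and temperature, and it was lower in HS. Among all probes, 0.886% passed it in either direction and 0.496% passed it as lower. A further 7 members were lower at an unadjusted p under 0.05 alone (8 with PSMC6), where 6.99% of all probes were, and no member was higher at that p, where 6.41% of all probes were. In whole glands, fewer cells of a type and less RNA per cell cannot be told apart.

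The members were not independent readings. Over the 36 pigs, after removal of the 6 group means, the 861 pairs of members had a median correlation of 0.19, where all pairs among 9350 genes had 0.01. The count of 36 lower genes thus rests on the same 36 pigs varying together. Of the 37 members with a mean above a log2 value of 8, 34 were lower. The dim members PSMA3, PSMB11, PSMF1, PSMD3 and PSMC3IP, 5 genes, had 2 lower.

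**Figure D1:**
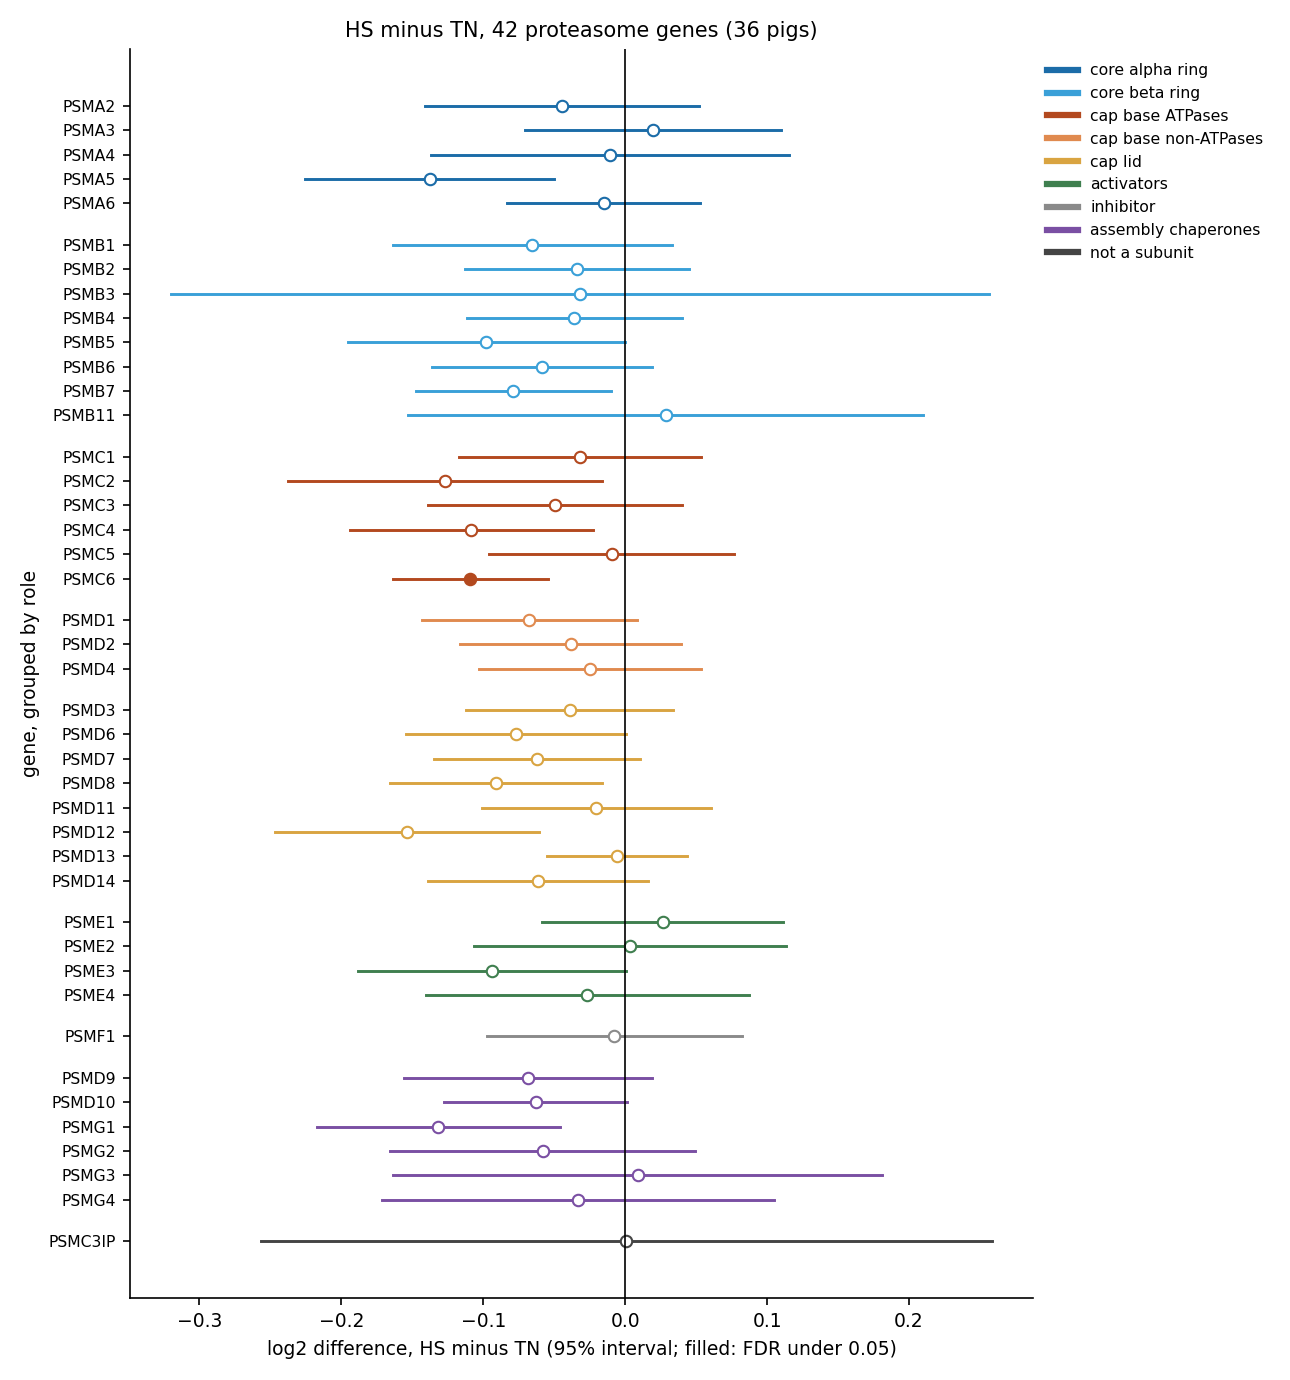
Log2 difference between HS and TN for each of 42 proteasome genes, grouped by role on the vertical axis, with 95% intervals from the model over 36 pigs. 36 points lie left of 0, and the filled point, PSMC6, is the gene past the FDR of 0.05.

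More members were lower than higher in each breed. In Creole pigs 29 of 42 members were lower in HS, where 50.8% of all probes were, with a median difference of -0.02. In Large White pigs 34 were lower, where 50.8% of all probes were, with a median of -0.06. In the cross 36 were lower, where 49.4% of all probes were, with a median of -0.09. No member passed the FDR of 0.05 by limma within a breed, where 0% of all probes passed in Creole pigs, 0.0109% in Large White pigs and 0% in the cross. A lower value in all 3 breeds was found for 23 members, where 17.2% of all probes had it, and a higher value in all 3 breeds for 1, where 16.6% of all probes had it.

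Averaged over the 42 genes, with each gene centred on its own mean, the values of single pigs overlapped between the temperatures. The Creole TN pigs lay from -0.04 to 0.10 with a median of 0.02, and the Creole HS pigs from -0.09 to 0.10 with a median of -0.01. The Large White TN pigs lay from -0.08 to 0.07 with a median of 0.00, and the HS pigs from -0.12 to -0.01 with a median of -0.03. The cross TN pigs lay from 0.01 to 0.10 with a median of 0.05, and the HS pigs from -0.09 to 0.07 with a median of -0.03. The 2 temperatures stood farthest apart in the cross. In all, 16 of 18 HS pigs were under the mean of the TN pigs of their own breed. The highest value of all 36 pigs was that of Creole HS replicate 6. Without this pig 37 members were lower, 14 of them at an unadjusted p under 0.05, and PSMC6 and PSMA5 passed the FDR of 0.05, with adjusted p-values of 0.0314 and 0.0416 by limma. Without Large White HS replicate 5, PSMC6 and PSMD12 passed. On the 5 slides, after each breed's mean was taken off, the HS arrays lay below the TN arrays by a mean difference of -0.06, -0.04, -0.05, -0.09 and -0.01.

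**Figure D2:**
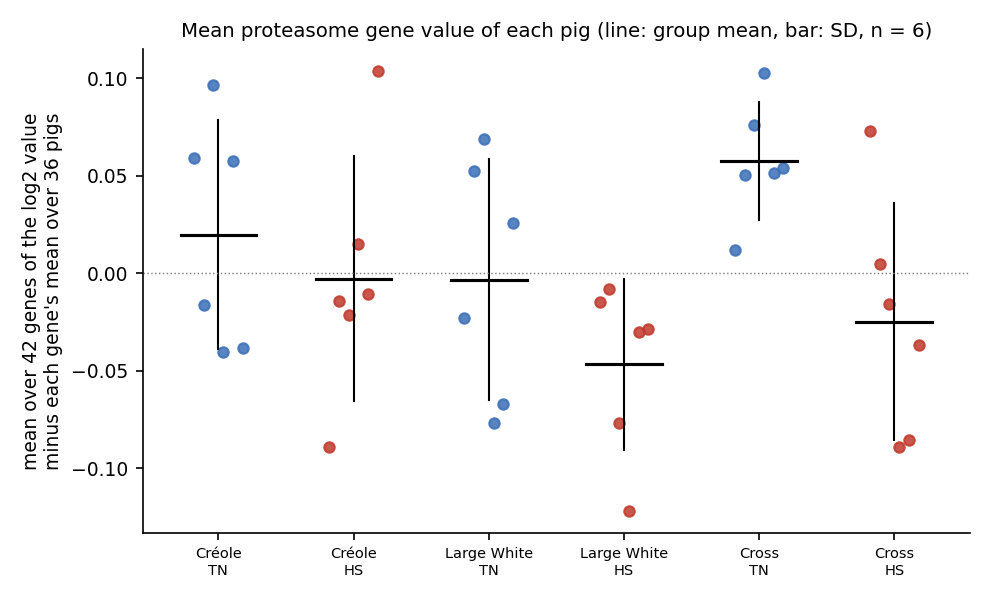
Mean of 42 proteasome genes in each pig, as log2 values with each gene centred on its mean over 36 pigs, for the 6 groups of 6 pigs (line: mean, bar: SD). The TN and HS points overlap in every breed, and the highest point is a Creole HS pig.

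Cell type markers were read in the same model, and of the cortex, chromaffin, red blood cell, leukocyte and adipocyte markers 1 passed the FDR of 0.05 in HS. The cortex list was lower in HS for 7 of 8 markers over all pigs, for 1 of 8 within Creole pigs, 7 in Large White pigs and 6 in the cross. NR5A1, the nuclear receptor that sets the steroid-making fate, fell by 0.25 (SE 0.0568, limma, adjusted p = 0.0255). The mean of the cortex list ran from -0.17 to 0.19 in TN pigs and from -0.23 to 0.16 in HS pigs. The chromaffin list was lower for 4 of 4 (3 in Creole pigs), with PNMT, the enzyme that makes adrenaline, at -0.35 (adjusted p = 0.0797), and its mean ran from -0.31 to 0.51 in TN and from -0.55 to 0.25 in HS. The red blood cell list was lower for 4 of 4 markers measured (2 in Creole pigs), from -0.35 to 1.01 in TN and from -0.60 to 0.66 in HS. The leukocyte list had 4 of 9 lower (4 in Creole pigs, 4 in Large White pigs and 7 in the cross), from -0.27 to 0.44 in TN and from -0.40 to 0.35 in HS. The adipocyte list was lower for 4 of 5 markers (5 in Creole pigs, 4 in Large White pigs and 2 in the cross), from -0.64 to 0.83 in TN and from -0.78 to 0.76 in HS. The part of these cells in the proteasome values was not tested.

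The 6 ATPases of the cap base form the ring that unfolds substrates, and all 6 were lower in HS, with a median of -0.08. PSMC6 (RefSeq assembly Sscrofa11.1, chr1:182329070-182354959) is one of these ATPases. In Creole pigs its log2 intensity had a lowest, median and highest value of 13.33, 13.45 and 13.50 in TN and of 13.15, 13.33 and 13.39 in HS. In Large White pigs these were 13.43, 13.45 and 13.55 in TN and 13.31, 13.38 and 13.52 in HS. In the cross they were 13.41, 13.50 and 13.64 in TN and 13.32, 13.37 and 13.48 in HS. Most HS pigs were low in each breed, and 17 of 18 were under the mean of the TN pigs of their own breed, but the ranges overlapped. PSMC6 fell by 0.11 on the log2 scale (SE 0.0269, 95% interval -0.16 to -0.05), a change of -7.29%, with an adjusted p of 0.0405 by limma. By breed the differences were -0.13 for Creole pigs, -0.13 for cross pigs and -0.07 for Large White pigs, and -0.18, -0.10, -0.10, -0.11 and -0.10 on the 5 slides.

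PSMC6 had 9 probes, which lets the difference be read from several stretches of the transcript, although some of the probes overlap. The 3 shown here were picked because they carry that reading: the brightest, the probe that overlaps it most, and the only probe that was not lower. The capitals mark the 35 bases that the first pair share.
PSMC6 A_72_P645302: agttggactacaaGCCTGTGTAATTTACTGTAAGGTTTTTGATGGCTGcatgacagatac
PSMC6 A_72_P584361: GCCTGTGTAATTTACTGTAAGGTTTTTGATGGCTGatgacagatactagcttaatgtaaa
PSMC6 A_72_P233572: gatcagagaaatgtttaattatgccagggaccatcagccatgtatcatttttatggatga

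The overlapping probe of PSMC6 gave an HS difference of -0.10 (adjusted p = 0.0716, limma), close to that of the brightest. In all, 8 of 9 probes were lower, from -0.11 to -0.07. A further pair among these, not shown, share 43 bases, so the probes are not all separate readings. The probe A_72_P233572 gave 0.02 in HS and was lower in Large White than in Creole pigs, by -0.24 (adjusted p = 0.000773, limma), where 7 of the 9 probes were higher and 1 more was lower, by -0.02 (adjusted p = 0.857). The call of PSMC6 was at the edge of the threshold. It was lost, with adjusted p-values from 0.0522 to 0.0674, when any of 16 pigs was left out: Creole TN 1 and 3, Creole HS 1 and 5, Large White TN 2 and 6, Large White HS 3, 4 and 6, cross TN 2, 3 and 4, and cross HS 2, 3, 4 and 6. It was also lost with the mean over the 9 probes (adjusted p = 0.103), with normexp background correction (0.0517), with 75th percentile scaling (0.0551), with median centring (0.0985), with no filter (0.0531) and with each slide left out in turn (0.0968 to 0.206).

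**Figure D3:**
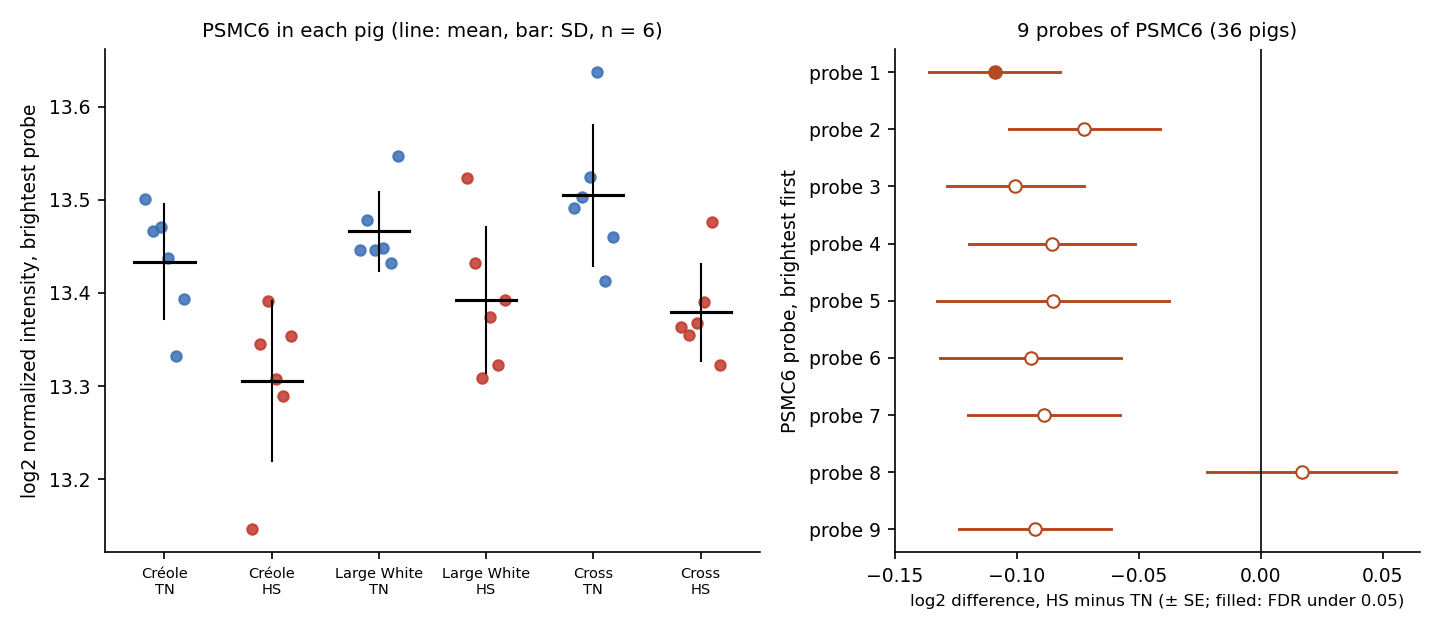
Left: log2 normalized intensity of the brightest PSMC6 probe in each of 36 pigs (line: mean, bar: SD, n = 6). Right: log2 difference between HS and TN for each of the 9 PSMC6 probes with its SE; 8 of 9 lie left of 0.

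Of the other ATPases, PSMC4 was at -0.11 (SE 0.0421, adjusted p = 0.216, limma) and PSMC2 at -0.13 (SE 0.0546, adjusted p = 0.277), each with 15 of 18 HS pigs under the mean of their TN counterparts. PSMC1 showed a probe-dependent size. Its brightest probe gave -0.03 in HS, while the other 3 probes gave -0.14, -0.20 and -0.18, with unadjusted p-values by limma of 0.0209, 0.00119 and 0.00233 and adjusted ones of 0.254, 0.0752 and 0.0996. PSMC3 was at -0.05 and PSMC5 at -0.01. The 4 probes of PSMC1 are shown because they also disagreed between the breeds, as described further on.
PSMC1 A_72_P063371: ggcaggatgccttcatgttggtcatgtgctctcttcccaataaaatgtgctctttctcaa
PSMC1 A_72_P171911: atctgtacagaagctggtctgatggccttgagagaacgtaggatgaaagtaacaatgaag
PSMC1 O12070: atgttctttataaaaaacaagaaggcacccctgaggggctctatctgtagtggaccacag
PSMC1 A_72_P643454: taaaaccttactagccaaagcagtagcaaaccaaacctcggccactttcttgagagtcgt

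The lid, which holds the enzyme that removes ubiquitin chains and its scaffold, had 8 of 8 genes lower in HS, with a median of -0.06. PSMD12 (chr12:13704112-13730072), a lid scaffold subunit, had the largest difference of all members. Its lowest, median and highest log2 values in Creole pigs were 10.06, 10.29 and 10.30 in TN and 9.57, 10.08 and 10.21 in HS. In Large White pigs they were 9.97, 10.11 and 10.21 in TN and 9.88, 9.99 and 10.18 in HS. In the cross they were 10.07, 10.16 and 10.30 in TN and 9.83, 10.02 and 10.24 in HS. The groups overlapped in every breed, and 16 of 18 HS pigs were under the mean of the TN pigs of their own breed. The difference was -0.15 (SE 0.0458, adjusted p = 0.0916, limma), and the second probe of the gene gave -0.11. PSMD8, a further lid subunit, was at -0.09 (SE 0.0368, adjusted p = 0.241). PSMD14, the deubiquitinase of the lid, was at -0.06, and the smallest lid difference was -0.01 for PSMD13.

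Among the other subunits of the base, 3 of 3 were lower, with a median of -0.04. PSMD1, a large scaffold that receives ubiquitin-like domains, was at -0.07 (SE 0.0373, adjusted p = 0.446, limma), and all 8 of its probes were lower, from -0.13 to -0.07. Without slide 4 the brightest PSMD1 probe gave -0.02. The ubiquitin receptor PSMD4 was at -0.02 and PSMD2, the partner scaffold of PSMD1, at -0.04.

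In the core, 11 of 13 genes were lower, 4 of 5 in the alpha ring with a median of -0.02 and 7 of 8 in the beta ring with a median of -0.05. PSMA5 (chr4:110695429-110717308), an alpha ring subunit, had lowest, median and highest values of 13.23, 13.47 and 13.57 over the 18 TN pigs and of 13.02, 13.32 and 13.61 over the 18 HS pigs. Its values were thus lower in most HS pigs, 16 of 18 against the mean of their TN counterparts, although the highest of all was an HS pig. The difference was -0.14 (SE 0.0431, adjusted p = 0.11, limma), and the 2 probes gave -0.14 and -0.13. The 3 catalytic beta genes were PSMB5, with chymotrypsin-like activity, at -0.10 (SE 0.0482, 95% interval -0.20 to 0.00, adjusted p = 0.374), PSMB7, with trypsin-like activity, at -0.08 (SE 0.0337, adjusted p = 0.275), and PSMB6, with caspase-like activity, at -0.06 (SE 0.0382, adjusted p = 0.543). PSMB4, a structural beta subunit, had 12 probes, and all 12 were lower, from -0.08 to -0.02.

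The activators were lower in 2 of 4 genes, with a median of -0.01. PSME1 and PSME2, which together form the interferon-induced activator ring, differed by 0.03 (SE 0.0418, 95% interval -0.06 to 0.11) and 0.00 (SE 0.0542, 95% interval -0.11 to 0.11), and neither passed the test (adjusted p = 0.851 and 0.989, limma). These were the only genes with several probes in which all probes (3 and 2) were higher in HS. Both signs turned negative with arrays centred on their median, to -0.01 and -0.04, without quantile normalization. PSME3, a nuclear activator, was at -0.09 (SE 0.0465, adjusted p = 0.377), and PSME4, a large single-chain activator, at -0.03. The inhibitor PSMF1 was at -0.01 (SE 0.0442, adjusted p = 0.967), with dim values from 5.67 to 6.32, and at 0.03 when arrays were scaled to their 75th percentile.

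Of 6 assembly chaperones, 5 were lower, with a median of -0.06. PSMG1 (chr13:202762509-202775601), which with PSMG2 helps to build the alpha ring, had lowest, median and highest values of 13.00, 13.40 and 13.57 in TN pigs and 12.98, 13.24 and 13.44 in HS pigs. The ranges overlapped and 15 of 18 HS pigs were under the mean of the TN pigs of their own breed. The difference was -0.13 (SE 0.0423, adjusted p = 0.122, limma), and its 2 probes gave -0.13 and -0.16. PSMG2 was at -0.06, PSMD9 and PSMD10, which attend the assembly of the ATPase ring, at -0.07 and -0.06, PSMG4 at -0.03 and PSMG3 at 0.01. PSMC3IP was at 0.00 (SE 0.127, adjusted p = 0.998), and its second, dimmer probe gave -0.14 (adjusted p = 0.152, limma).

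Counted by probe rather than by gene, 91 of 104 member probes tested were lower in HS. Of the 62 probes not chosen by brightness, 55 were lower, and none passed the FDR of 0.05 by limma. Of 27 genes with over 1 probe, 20 had all probes lower, 2 had all higher and 5 were mixed.

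No interaction of breed and temperature passed the FDR of 0.05 for any member, nor for any probe of the array (0%). At an unadjusted p under 0.05 there was 1 member, PSMD6, where 4.21% of all probes were called. PSMD6, a lid subunit, differed in HS by 0.04 for Creole pigs, -0.20 for cross pigs and -0.07 for Large White pigs (unadjusted p = 0.0316, adjusted p = 0.982, limma).

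Between the parental breeds the members did not share a direction. In Large White compared with Creole pigs, with both temperatures pooled in the model, 27 members were lower and 15 higher, where 50% of all probes were lower, with a median of -0.03. Of the 42, 7 passed the FDR of 0.05 by limma, 4 lower and 3 higher in Large White, where 11.3% of all probes passed. The F test over the 3 breeds called 5 of these 7, where 10.4% of all probes were called, and 3 without Creole TN replicate 3, Creole HS replicate 1 or Creole HS replicate 4. The lower genes were the beta ring subunits PSMB3 and PSMB6 and the ATPases PSMC1 and PSMC5. The higher genes were the assembly chaperones PSMG4 and PSMD9 and the inhibitor PSMF1. Tested within a temperature, PSMF1 passed among TN pigs (adjusted p = 0.0322), where 3.48% of all probes did, and no member passed among HS pigs, where 2.80% did. At an unadjusted p under 0.05 in the pooled model, 7 members were lower, where 12.1% of all probes were, and 3 were higher, where 12.1% were. The sign was the same in TN and HS for 30 of 42 members, where it was for 65.7% of all probes.

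**Figure D4:**
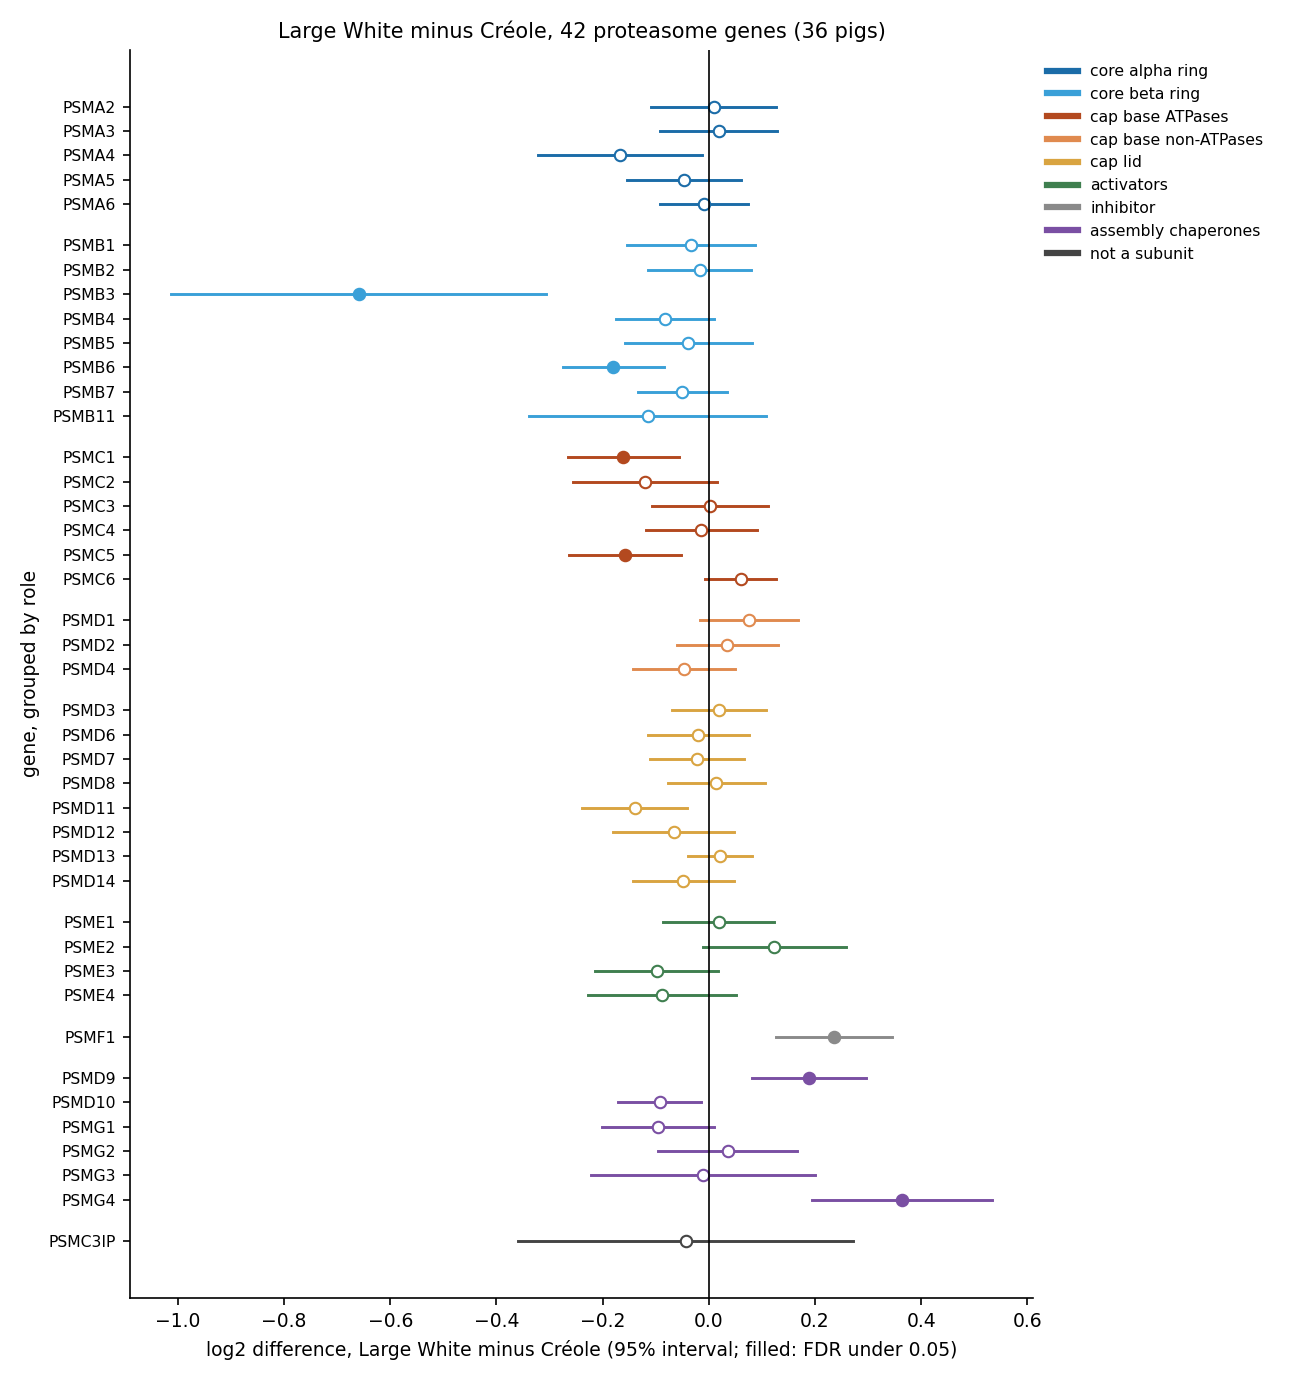
Log2 difference between Large White and Creole pigs for each of 42 proteasome genes, grouped by role, with 95% intervals from the model over 36 pigs. The 7 filled points passed the FDR of 0.05, and PSMB3 and PSMG4 lie farthest from 0.

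All 8 beta ring genes were lower in Large White pigs, with a median of -0.07. The dim PSMB11 was at -0.12, but the probe under another name that shares 59 of its bases gave 0.03. PSMB3 (chr12:23347060-23357616), a non-catalytic beta subunit, varied most. In the 6 Creole TN pigs its log2 values were 10.10, 10.25, 10.58, 11.30, 11.33 and 11.44. In the 6 Creole HS pigs they were 10.03, 10.48, 10.97, 11.24, 11.56 and 11.74. The Large White pigs lay from 10.09 to 10.63 in TN and from 10.06 to 10.37 in HS. High and low values thus occurred side by side in the Creole pigs at both temperatures, and the 12 Large White pigs were all in the low range. In the cross, 1 of 6 TN pigs and 1 of 6 HS pigs had a value of 11.26, and the others lay from 9.91 to 10.57. The model gave a mean difference of -0.66 between Large White and Creole (SE 0.174, 95% interval -1.01 to -0.31, adjusted p = 0.0104, limma), a ratio of 1.58 in favour of Creole pigs. Since the Creole values were spread over both ranges, this mean describes few single pigs. The call was lost without slide 2, 3 or 4 (adjusted p = 0.0712, 0.0741 and 0.0722).

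The 2 PSMB3 probes are shown because they share no run longer than 6 bases and were both lower in Large White than in Creole pigs.
PSMB3 O13284: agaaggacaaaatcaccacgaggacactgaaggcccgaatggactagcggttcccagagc
PSMB3 A_72_P394728: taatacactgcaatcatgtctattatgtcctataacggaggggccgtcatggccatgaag

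The second PSMB3 probe gave -0.77 between Large White and Creole (adjusted p = 0.00352, limma). A probe with the same 60 bases as the second, which the array lists under a sequence accession, also gave -0.77 (adjusted p = 0.00582). This pair of identical sequence had a correlation of 0.987 over the 36 pigs. Heat did not separate the PSMB3 values, with a difference of -0.03 (SE 0.142, 95% interval -0.32 to 0.26).

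**Figure D5:**
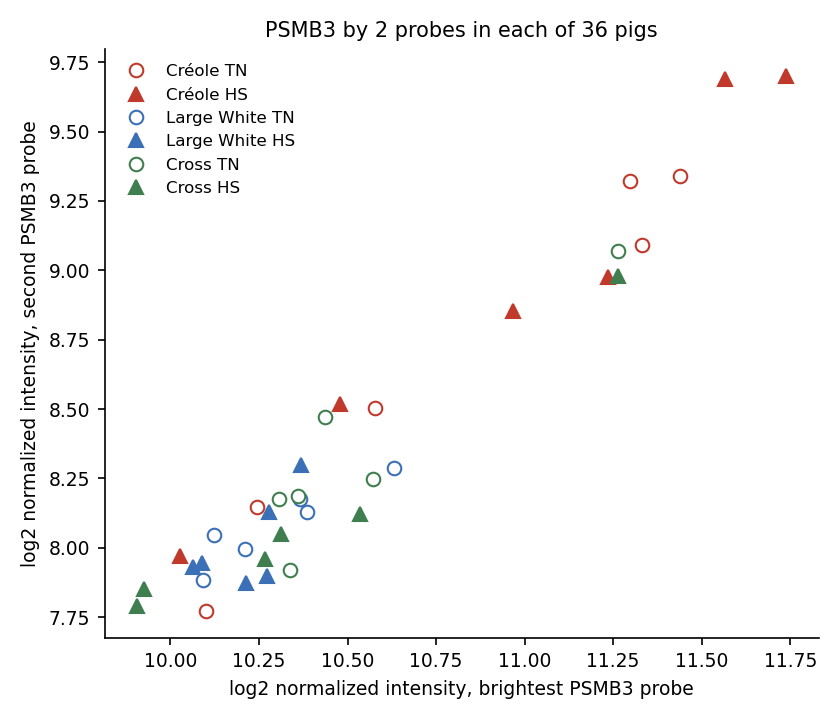
Log2 normalized intensity of the brightest PSMB3 probe (horizontal) and of the second probe (vertical) in each of 36 pigs, by breed and temperature. All 12 Large White pigs lie at the lower left, and Creole pigs of both temperatures lie at both ends.

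PSMB6 (chr12:52096009-52098164), the caspase-like subunit, lay from 14.63 to 15.05 with a median of 14.86 in Creole pigs and from 14.49 to 14.83 with a median of 14.70 in Large White pigs, so the lower Creole pigs fell in the Large White range. The cross lay from 14.70 to 14.96 with a median of 14.82. The difference was -0.18 (SE 0.0468, adjusted p = 0.00932, limma). Its 4 probes gave -0.17 to -0.18, and 3 of 4 passed the FDR of 0.05. A pair of probes listed under accessions share 35 and 40 bases with the dimmest of the 4 and gave 0.06 (adjusted p = 0.86) and -0.03 (adjusted p = 0.904). The brightest is shown because the 4 probes named PSMB6 gave like values.
PSMB6 O9283: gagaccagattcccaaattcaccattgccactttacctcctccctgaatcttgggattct

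PSMG4 (chr7:1980295-1987946) pairs with PSMG3 as a chaperone of the alpha ring. In Creole pigs its lowest, median and highest values were 12.07, 12.56 and 13.04 in TN and 12.22, 12.50 and 12.98 in HS. In Large White pigs they were 12.84, 12.94 and 13.03 in TN and 12.78, 12.92 and 13.01 in HS. In the cross they were 12.79, 12.87 and 12.99 in TN and 12.63, 12.85 and 13.03 in HS. The Large White pigs sat in a narrow band and the Creole pigs spread below and into it. The difference was 0.36 (SE 0.0833, adjusted p = 0.00315, limma), 1.29-fold higher in Large White. The 2 probes of identical sequence that the array lists under another name gave 0.34 each (adjusted p = 0.00265 and 0.00607).
PSMG4 O11593: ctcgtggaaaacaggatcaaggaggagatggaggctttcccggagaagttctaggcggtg

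The other calls rested on smaller differences. PSMD9 (chr14:30793521-30822135) was higher in Large White by 0.19 (SE 0.0528, adjusted p = 0.0159, limma), lying from 12.87 to 13.27 in Creole and from 13.01 to 13.47 in Large White pigs. Its second probe gave 0.27 (adjusted p = 0.109), and a probe listed under an accession that shares 57 of its bases gave 0.11 (adjusted p = 0.258). PSMF1 (chr17:34118324-34164723) was higher by 0.24 (SE 0.0541, adjusted p = 0.00321), from 5.67 to 6.08 in Creole and from 5.88 to 6.32 in Large White, at the dim end of the members, and its size was 0.15 with normexp background correction and 0.49 with 75th percentile scaling. For both genes the breeds overlapped in range. The call of PSMD9 was lost with 75th percentile scaling (adjusted p = 0.167), with median centring (0.0534) and without slide 1, 4 or 5 (0.057, 0.0677 and 0.0947), and that of PSMF1 without slide 3 or 5 (0.0777 and 0.0647).

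The ATPase calls differed between probes. PSMC1 (chr7:112027904-112041360) lay from 14.70 to 14.96 in Creole and from 14.49 to 14.85 in Large White pigs by its brightest probe, a difference of -0.16 (SE 0.0514, adjusted p = 0.0364, limma). The other 3 PSMC1 probes printed above gave 0.04, 0.20 and 0.10, so the direction depended on the probe, and the mean over the 4 probes gave 0.04. PSMC5 (chr12:15101946-15106326), from 11.78 to 12.30 in Creole and from 11.76 to 12.03 in Large White, differed by -0.16 (SE 0.0521, adjusted p = 0.0427), and a probe under another name that shares 57 bases gave -0.09 (adjusted p = 0.376). The PSMC5 call was lost with normexp background correction (adjusted p = 0.0536), 75th percentile scaling (0.0737), median centring (0.157), no filter (0.054), array weights (0.0587) and each slide left out in turn (0.0778 to 0.146). The PSMC1 call was lost with 75th percentile scaling, with median centring (0.156) and without slide 1, 2, 3 or 5. Both calls were lost without any of 13 pigs each. For PSMC1 these were Creole TN 1 and 3, Creole HS 3, 4, 5 and 6, Large White TN 1, 2, 4 and 5, and Large White HS 2, 3 and 6. For PSMC5 they were Creole TN 1, 2 and 3, Creole HS 1, 4 and 6, Large White TN 1, 4, 5 and 6, and Large White HS 2, 3 and 5.

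The members that did not pass included, with the largest difference in their role groups, PSMD11 of the lid at -0.14 (adjusted p = 0.0569, limma), PSMA4 of the alpha ring at -0.17 (adjusted p = 0.162, limma), PSME2 at 0.12 (adjusted p = 0.255) and PSMD1 at 0.08 (adjusted p = 0.326). PSMD11 passed without cross HS replicate 1, Large White TN replicate 2 or 3, or Large White HS replicate 1 (adjusted p from 0.0253 to 0.0478, limma) or when slide entered the model as a block (0.0318), and PSMA4 passed without slide 1 (-0.23, adjusted p = 0.0412). Without slide 4 the difference shrank to -0.08 for PSMD11 and to -0.08 for PSMA4. Cell type markers were compared between these breeds as well. Of 8 cortex markers, 2 passed the FDR of 0.05 as lower in Large White, with a list median of -0.04. Of 9 leukocyte markers, 7 were higher in Large White and 2 lower, with a list median of 0.07. Only 1 passed, as lower, while 4 were higher at an unadjusted p under 0.05 by limma. No red blood cell marker passed. Of 5 adipocyte markers, 4 passed the FDR of 0.05 as lower in Large White, with a list median of -0.90, and the list mean ran from -0.48 to 0.83 in Creole and from -0.78 to -0.08 in Large White pigs. Of 4 chromaffin markers, 3 passed as higher, with a list median of 0.37, and the list mean ran from -0.55 to 0.10 in Creole and from -0.44 to 0.51 in Large White pigs. Their part in the proteasome differences was not tested.

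In the cross compared with the mean of its parents, 32 of 42 members were higher, where 49.3% of all probes were, with a median of 0.03. No member passed the FDR of 0.05 by limma, where 0.409% of all probes did. At an unadjusted p under 0.05, PSME3 (0.12, adjusted p = 0.337) and PSMD13 (0.07, adjusted p = 0.285) were higher, where 5.33% of all probes were, and none was lower, where 5.67% were. The direction of both depended on the probe. The second probe of PSME3 gave -0.06 and that of PSMD13, a dim probe, gave -0.04. In the same comparison 9 of 9 leukocyte markers were lower in the cross, with a list median of -0.22, and 9 of 10 interferon response genes, with a list median of -0.06, and none of either list passed the FDR of 0.05. The list mean of the leukocyte markers ran from -0.40 to 0.11 in the cross, from -0.17 to 0.44 in Creole pigs and from -0.21 to 0.35 in Large White pigs. Their part in the proteasome values was not tested.

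Pig by pig, many members varied together within a group. After removal of the 6 group means, 627 of 861 pairs had a correlation above 0, and 154 pairs above 0 and 18 below 0 passed the FDR of 0.05 over the 861 pairs by permutation within groups. The shuffles did not take the slides into account. The share of such pairs among all genes was not counted, so these counts cannot be called particular to the members. The median correlation was 0.22 within the core, 0.28 within the cap and 0.27 between core and cap. The pair with the highest value joined the core and the cap. PSMB7 and the lid gene PSMD8 had r = 0.83 and rho = 0.79 over 36 pigs (permutation, adjusted p = 0.00096 and 0.00078), r = 0.76 without the 2 pigs farthest in PSMB7 and r = 0.68 with slide means also removed. PSMB1 and the chaperone PSMG1 had r = 0.83 and rho = 0.80 (permutation, adjusted p = 0.00096 and 0.00078), 0.76 without the 2 farthest pigs and 0.73 with slide means removed. Some pairs followed the slide. PSMC3IP and PSMD8 had r = -0.71 and rho = -0.74 (permutation, adjusted p = 0.00096 and 0.00078), -0.72 without the 2 farthest pigs, but -0.20 with slide means removed. In the same way PSMC3IP went from r = -0.68 to -0.21 with PSMB6 and from -0.64 to -0.01 with PSMB1. Over all 861 pairs the median correlation was 0.23 with slide means removed.

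The activator genes PSME1 and PSME2 varied with each other and with PSMB9 and PSMB10 of the 3 immunoproteasome genes. Their correlation with each other was r = 0.72 and rho = 0.74 (permutation, adjusted p = 0.0012 and 0.00078), 0.72 without the 2 farthest pigs and 0.80 with slide means removed. PSMB9, a catalytic subunit that replaces a standard beta subunit in cells exposed to interferon, correlated with PSME2 at r = 0.77 and rho = 0.77 (permutation, adjusted p = 0.0013 and 0.00063 over 126 pairs), 0.72 without the 2 farthest pigs and 0.78 with slide means removed. It correlated with PSME1 at r = 0.61 and rho = 0.64 (permutation, adjusted p = 0.0091 and 0.0028), 0.57 without the 2 farthest pigs and 0.73 with slide means removed. PSMB10 gave 0.65 with PSME2 (rho = 0.66, permutation, adjusted p = 0.0013 and 0.00063) and 0.63 with PSME1 (rho = 0.66, adjusted p = 0.008 and 0.0021), and 0.63 and 0.56 without the 2 farthest pigs. PSMB8, the third of these genes, had r = 0.08 with PSME1 (rho = 0.10, permutation, adjusted p = 0.9 and 0.85) and r = 0.05 with PSME2 (rho = 0.04, permutation, adjusted p = 0.91 and 0.98), and 0.03 and 0.05 without the 2 farthest pigs. Of the 42 members, PSME1 and PSME2 were the only ones whose r passed the FDR of 0.05 with PSMB9 or PSMB10, and none passed with PSMB8. Over all 42 members the median correlation was -0.22 with PSMB8, -0.10 with PSMB9 and -0.06 with PSMB10. PSMB6, for example, had r = 0.23 with PSMB9 (rho = 0.21, permutation, adjusted p = 0.57 and 0.6), 0.41 without the 2 farthest pigs and 0.09 with slide means removed.

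The immunoproteasome genes themselves did not pass the test for heat. PSMB8 differed by 0.04 (SE 0.188, adjusted p = 0.963, limma), PSMB9 by 0.11 (SE 0.114, adjusted p = 0.759) and PSMB10 by -0.02 (SE 0.0692, adjusted p = 0.926), and by their brightest probes none passed between the breeds either. All 4 probes of PSMB10 were higher in Large White than in Creole pigs, from 0.16 to 0.23, and 1 of them passed the FDR of 0.05 (A_72_P003971, 0.23, adjusted p = 0.0454, limma). The interferon response list had 4 of 10 genes lower and 6 higher in HS, and none passed. By breed, 8 of 10 were higher in Creole pigs, and 8 of 10 were lower in Large White pigs and in the cross. The 3 immunoproteasome genes were all higher in HS in Creole pigs and all lower in Large White pigs, and 1 was lower in the cross. No interaction of breed and temperature passed for either list.

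Genes that work beside the proteasome were split between the directions. Of 10 proteasome partners tested, such as receptors and deubiquitinases that dock on the cap, 6 were lower and 4 higher in HS, with a median of -0.02. Of 13 ubiquitin genes and shuttles, 7 were lower and 6 higher, with a median of 0.00, including the ubiquitin precursor UBB at 0.01 (adjusted p = 0.918, limma). Of 5 genes that control proteasome gene transcription, 1 was lower and 4 were higher, with NFE2L1, the transcription factor that answers loss of proteasome activity, at 0.05 (SE 0.0611, adjusted p = 0.779). No gene of these 3 lists passed the FDR of 0.05 for heat. Between the breeds 1 did, ZFAND5, a zinc finger protein that stimulates the proteasome, at -0.29 in Large White (SE 0.0709, adjusted p = 0.00619). No difference between these lists and the members was tested.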

How the data were processed

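Total RNA of 36 adrenal glands was labelled with Cy3 and hybridized to 36 Agilent 1-colour arrays. The authors deposited scanner intensity values, extracted per the file headers with Agilent Feature Extraction 10.10.1.1, and a log2 table that the authors quantile normalized. How that table was filtered is not given in the sources used here. For the values here, the deposited median spot intensity was quantile normalized over the 36 arrays and taken to log2, which matches the scale of the deposited log2 table. Control spots were left out, spots flagged as outliers were set to missing, and a probe was kept if 9 or more of the 18 arrays at either temperature showed it well above background, leaving 45943. The number of arrays limits the precision.

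Differences were fitted with limma 3.58.1 (lmFit, eBayes) in R 4.3.3 on all probes tested, with breed and temperature as terms or with 6 group means, and adjusted by Benjamini-Hochberg over all probes. The study's model also held the parents, the pen and the slaughter day. These are not given with the arrays, and p-values do not include them. The scripts were tested on simulated data. Correlations used 100000 shuffles within groups, with 1e-05 the smallest p these can give. In the correlations PSMB8 was read from its brightest probe with a value on every array, since its brightest probe had none on 1 array.

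Members and gene lists were chosen with earlier results of these data known. Named members were those past the FDR of 0.05, the largest of each role group in heat and between parental breeds, the lowest unadjusted p-values for heat and interaction, and PSME1, PSME2 and PSMC3IP; others were named after their values were seen. Replicates are numbered in accession order. Alternatives were background correction, scaling, filter, slide, probe choice, array weights and leaving out each pig. Gene names of some probes rest on homology. Coordinates are from RefSeq, assembly Sscrofa11.1, matched by symbol for 43 of 43 members. Promoter and protein sequences were not analysed here.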

Additional observations from a re-analysis of the deposited data

Results flagged for a closer look

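In 150 groups of 6 pigs tested for a value far from the rest, 7 stood apart by Dixon's ratio, and chance gives about 1 in 20. The ratio is the gap to the nearest pig over the whole range of the group. PSMA4 was lowest in Large White HS replicate 5, at 12.26 against 12.70 for the next pig (ratio 0.644), and the same pig had the highest PSMC1 of its group, at 14.85 against 14.64 (0.676). PSMB3 was highest in cross TN replicate 5, at 11.26 against 10.57 (0.723), the pig that lies among the high Creole values. PSMB5 was highest in cross TN replicate 6, at 12.06 against 11.69 (0.752). PSMD11 was highest in cross HS replicate 1, at 14.02 against 13.79 (0.737), and lowest in Large White TN replicate 5, at 13.29 against 13.69 (0.641). PSME3 was highest in Large White HS replicate 1, at 12.03 against 11.74 (0.761). No cause was tested.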

How the results depend on the processing

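No paired analysis was possible because the replicate numbers follow accession order and name no shared litter, pen or day. With 18 pigs a temperature the median SE of a member's heat difference was 0.0424, about as large as the median difference itself.

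The count of members lower in HS stayed between 34 and 40 of 42 under every alternative, and between 35 and 39 when any 1 pig was left out. The median difference in HS ran from -0.09 to -0.04 and, with 1 pig left out, from -0.06 to -0.03. The members past the FDR of 0.05 in HS (1 gene) became 0 with normexp background correction, 75th percentile scaling, median centring, no filter, the mean over a gene's probes, and each of the slides 1, 2, 3, 4 and 5 left out, and 2 with array weights, where PSMD12 joined. With 1 pig left out they ran from 0 to 2. Members lower at an unadjusted p under 0.05 (8 genes) became 14 with median centring and 5 without slide 1 or slide 4, and ran from 8 to 14 with 1 pig left out, 14 without Creole HS replicate 6. The F test over breeds (5 genes) called 3 with median centring, 2 without slide 1, 2, 4 or 5 and 1 without slide 3, and 3 to 6 with 1 pig left out, 3 without Creole TN replicate 3, Creole HS replicate 1 or Creole HS replicate 4. Large White against Creole (7 genes) gave 4 with 75th percentile scaling, median centring, or without slide 2 or 4, and 3 without slide 3 or 5, and ran from 5 to 8 with 1 pig left out. Fewer arrays entered the fits without a slide, and for the other settings the cause was not tested. No member passed for the cross against its parents, the interaction, or heat within a breed under any alternative. The slide as a fixed block added PSMD11 between the breeds (adjusted p = 0.0318, limma).

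Differences near 0 changed sign. PSMF1 in HS became 0.0264 with 75th percentile scaling and 0.0172 without slide 4. PSMC3IP became -5e-04 with median centring, -0.006, -0.0026 and -0.0204 without slides 1, 4 and 5, and -0.0686 by the mean over its probes. PSME1 became -0.0127 with median centring and -0.0022 without slide 4. PSME2 became -0.0372 with median centring, -0.0221, -0.0099 and -0.0028 without slides 1, 3 and 4, and -0.0197 with array weights. With 1 pig left out PSMF1 ran from -0.0223 to 0.0078, PSMC3IP from -0.0385 to 0.0431 and PSME2 from -0.015 to 0.0262. Between the breeds the mean over the probes gave 0.0447 for PSMC1 and 0.0463 for PSMC3IP, and with 1 pig left out PSMC3IP ran from -0.1067 to 0.0156. Array scaling moved the median of all probes in HS by at most 0.0147 in size, with median centring.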
